A study of Mus musculus with 10 samples.

Results

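The 7 genes described here are Cdkn1a, Cdkn1b, Ccng1, Mdm2, Gdf15, Bax and Trp53inp1, a set of p53 target genes and cell-cycle arrest genes. They were chosen by name, with earlier results of these data known, and are 7 of the 28808 gene symbols counted in single cells of the mouse kidney cortex. The material came from mice aged 4 weeks whose kidneys were normal (control, 1 library) or had been injured 1, 2 or 4 days earlier (1 library each) or 7, 11 or 14 days earlier (2 libraries each). The series asks how kidney cells change their programmes after acute injury. The labels give no kind of injury, strain, sex or animal, and they do not say whether the 2 libraries of a day came from different mice, so the p-values below measure the spread between libraries, which may be technical. The values are counts of unique molecular identifiers (UMIs), the tags that mark each captured RNA molecule in Drop-seq, a method that reads the 3′ end of RNA caught on a barcoded bead with each cell.

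p53 is a transcription factor that is held low by MDM2 and accumulates after DNA damage and other stress. Its targets include brakes on the cell cycle, genes of cell death and its own negative regulators. In the kidney tubule these genes are known for their response to acute injury, in which surviving epithelial cells divide, pause or die. Cdkn1a encodes p21, an inhibitor of cyclin-dependent kinases and the classical p53 target of growth arrest. Cdkn1b encodes p27, a related inhibitor that is largely controlled apart from p53. Ccng1 (cyclin G1) and Mdm2 (the ubiquitin ligase of p53) are p53 targets that act back on p53. Bax encodes a pore-forming protein of the mitochondrial death pathway, Trp53inp1 a nuclear stress protein that promotes p53 activity, and Gdf15 a secreted stress cytokine that is induced by p53 and by the integrated stress response.

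The promoter sequences are shown because they carry the letters that p53 is known to bind. The RefSeq promoter table (GRCm38.p6) holds windows from 250 bases before to 50 after a transcript start. It gave 8 windows for 6 of the 7 members and none for Trp53inp1. Each window was searched on both strands for the p53 half-site, a palindromic consensus of 10 letters. A half-site stood in 4 of the 8 member windows and in 2745 of all 32851 windows (8.36%). The windows of Cdkn1b and Gdf15 and the downstream one of the Cdkn1a windows held no match. Stretches with the half-sites in capitals, each written 5′ to 3′ on the gene's strand, are as follows.
Cdkn1a, chr17:29090729-29090978, plus strand: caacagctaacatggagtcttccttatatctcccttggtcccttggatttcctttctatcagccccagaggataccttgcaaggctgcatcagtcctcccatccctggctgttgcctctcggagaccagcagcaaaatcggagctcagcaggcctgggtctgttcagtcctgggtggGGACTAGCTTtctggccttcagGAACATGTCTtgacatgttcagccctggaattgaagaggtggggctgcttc
Bax, chr7:45467065-45467124, minus strand: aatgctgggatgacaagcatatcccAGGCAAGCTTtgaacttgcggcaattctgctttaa
Mdm2, chr10:117710910-117710969, minus strand: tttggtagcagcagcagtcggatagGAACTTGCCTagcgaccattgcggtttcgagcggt
Ccng1, chr11:40755437-40755496, minus strand: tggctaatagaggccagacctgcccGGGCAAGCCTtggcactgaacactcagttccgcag

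The upstream of the Cdkn1a windows held 2 half-sites, GGACTAGCTT beginning 73 bases and GAACATGTCT beginning 51 bases before its own start. The window of the downstream Cdkn1a start (chr17:29093519-29093818) held none. A pair separated by up to 13 bases is the arrangement of a full p53 element, and it stood in 24 of the 32851 windows (0.0731%) and in no other member window. The other 3 windows with a match held 1 half-site each, 201 bases (Bax), 186 bases (Mdm2) and 185 bases (Ccng1) before the start. A match describes letters and shows no binding. Only exact matches were marked. The 10 bases directly after GAACATGTCT miss the consensus by 1 letter, so the marked pair need not be the stretch that p53 binds. In the GENCODE annotation of the same build, the Cdkn1a gene (chr17:29090976-29100727, plus strand) shares 1046 bases with a gene on the opposite strand, AC167363.2. Bax (chr7:45461697-45466898, minus strand) shares 915 bases with Gm45808 on its own strand. The labels do not say whether counting used strand, so reads of these partners could not be told apart from reads of Cdkn1a and Bax.

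The tables held 64803 barcodes and 7091848 to 31632205 UMIs per library, and 50378 cells were used after filtering. At most 4 barcodes were shared by any pair of libraries. Cells were called tubular from summed raw UMIs of tubular marker genes, which gave 40746 tubular cells, 1923 to 6192 per library. Podocytes, cells of the cortical glomeruli, were found in each library (12 to 195 cells). All 7 members passed the filter on low counts in every comparison. Levels are given as CPM, that is a gene's UMIs over the class's summed UMIs in counts-per-million units, divided by edgeR's TMM composition factor. The scaling bears most on day 7, and also on days 1, 2 and 4. The TMM factors were 0.822 in the control, 1.16, 1.09 and 1.17 (days 1, 2 and 4), and 1.45 and 1.39 (day 7). Relative to the control, levels of days 1, 2 and 4 are therefore also higher with library size alone. The 20 most abundant genes took 33.1% of tubular UMIs in the control and 11.6% and 12.6% on day 7, and mitochondrial genes 24.2% against 4.64% and 5.94%. With TMM the median log2 change of all genes from control to day 7 was 0.04. With library size alone it was 0.82, so every day 7 level below is higher on that scale, and the changes below are relative to the TMM median.

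Cdkn1a, the p21 gene, had the widest range of the members in tubular cells. Its level was 11.9 CPM in the control, 83.4 (day 1), 59.2 (day 2), 72.3 (day 4), 148 and 124 (day 7), 36.0 and 28.7 (day 11), and 8.49 and 7.75 (day 14). All injured libraries up to day 11 were above the control and both of day 14 were below it, with no overlap among the libraries of days 7, 11 and 14. The highest library stood 19.1 times above the lowest, against 1.39 times (Trp53inp1) to 3.11 times (Gdf15) for the other members. Against the control the ratio was 6.99 after 1 day (95% counting interval 6.06 to 8.08), 4.96 after 2 days (4.31 to 5.71) and 6.06 after 4 days (5.32 to 6.93), with no replicate check. With library size alone these ratios were 9.82, 6.54 and 8.62. The day 7 mean was 136 ± 17.2 (SD, n = 2), and the rise over the control was 3.51 ± 0.26 on the log2 scale (SE, edgeR quasi-likelihood test, adjusted p = 9.89e-06). The make-up of the tubular sum moved with it. Cells gated as proximal, which carry neither Havcr1 nor Vcam1 UMIs, were 3594 of 5197 tubular cells in the control, 128 of 1923 and 252 of 2425 on day 7, 3334 of 4347 and 3651 of 4504 on day 11, and 4898 of 6192 and 4346 of 5587 on day 14. Within thick limb cells alone the day 7 rise passed (3.75), and within proximal cells alone it was 1.39 and did not pass.

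Cdkn1a then fell between every pair of the later days. The log2 change was -2.07 ± 0.18 from day 7 to day 11 (edgeR, adjusted p = 1.69e-05) and -1.99 ± 0.20 from day 11 to day 14 (edgeR, adjusted p = 0.000755). On day 11 it was still 1.44 ± 0.24 above the control (edgeR, adjusted p = 0.00507). On day 14 the difference from the control, -0.55 ± 0.23, did not pass (edgeR, adjusted p = 0.159). Summed over all cells without a gate, it was -0.82 and passed (edgeR, adjusted p = 0.0348). The rise to day 7 ranged from 2.52, in all cells without a gate, to 4.30, with library size alone, and passed in each alternative.

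**Figure D1:**
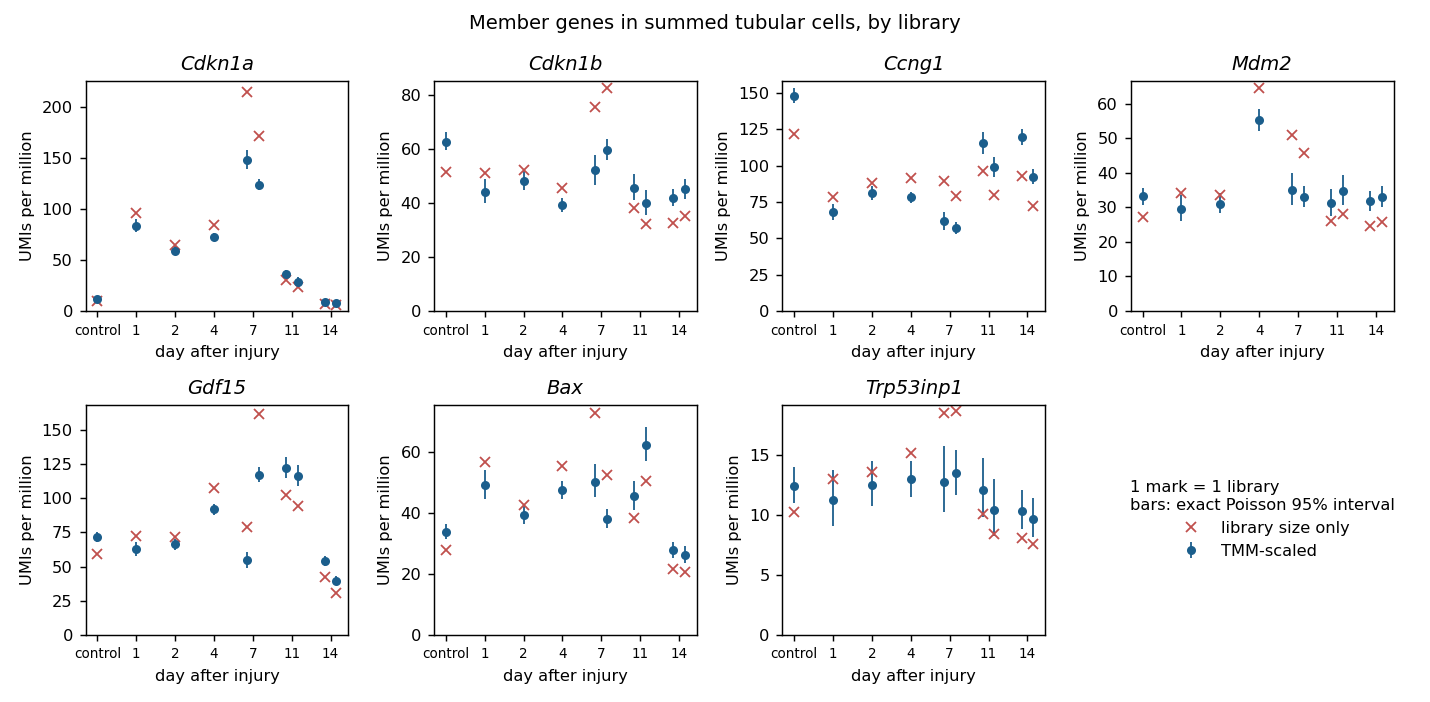
Level of each member in summed tubular cells, in CPM, by day after injury; 1 mark is 1 library, circles are TMM-scaled with exact Poisson 95% intervals and crosses are scaled by library size only. Cdkn1a runs from 7.75 to 148 on the TMM scale and peaks in both day 7 libraries, Ccng1 is highest in the control at 148, and Trp53inp1 stays between 9.67 and 13.5.

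The same order was seen as a share of cells. With each tubular cell thinned to 1000 UMIs, a Cdkn1a UMI was found in 0.946% of control cells (exact interval 0.696 to 1.26%), 8.35% (day 1), 5.41% (day 2), 6.39% (day 4), 13.1% and 11.3% (day 7), 2.01% and 1.62% (day 11), and 0.584% and 0.524% (day 14). Without thinning the shares were 3.54% in the control and 22.4% and 22.6% on day 7, at median depths of 2900, 1427 and 2208 UMIs. Thinning left out 227 control cells and 584 and 368 day 7 cells with fewer UMIs. Podocytes were the non-tubular gated type with the least Cdkn1a, 0 to 3 UMIs per library in all their cells. After the same thinning a UMI was found in 0 of 58 podocytes in the control (exact upper limit 6.16%), 0 of 11 and 1 of 31 on day 7 (upper limits 28.5% and 16.7%), 1 of 134 and 0 of 95 on day 11 (4.09% and 3.81%), and 0 of 31 and 0 of 14 on day 14. Their median depth was 2117 UMIs in the control and 1188.5 and 1670 on day 7. With so few podocytes, each tubular share of these days lay below the upper limit of its podocyte share, so these shares showed no difference from that background. In summed counts, each class on its own scale, the upper podocyte limit was 87.9 CPM in the second day 7 library and 27.6 and 26.1 on day 11. These limits lay below the tubular levels of the same libraries. Those of the control (33.2) and the first day 14 library (59.4) lay above them. The difference between the classes was not tested. Endothelial cells carried 112 to 1180 and immune cells 191 to 425 scaled CPM.

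Markers of those other cell types were also higher on day 7 than in the control in the tubular sums. The 14 immune markers summed to 11.1 CPM without the TMM factor in the control, 377 and 123 on day 7, and 12.6 to 36.1 on days 11 and 14. The 9 endothelial markers summed to 16.1 in the control and 74.1 and 33.1 on day 7. None of the immune and endothelial markers was at 0 in the control, and 1 immune marker was at 0 in the second day 7 library. The 9 stromal markers summed to 14.7 in the control and 110 and 63.0 on day 7. The earlier days were high too, as the proximal part of these sums shows. There the immune markers were at 7.29 in the control, 316, 179 and 92.9 (days 1, 2 and 4), and 505 and 207 (day 7). The endothelial markers were at 11.2 in the control, 164, 61.0 and 22.0 (days 1, 2 and 4), and 87.7 and 32.3 (day 7). The 5 erythroid genes (haemoglobins and Alas2), which no gate used, summed to 17.9 in the control, 1909 (day 1), 111 (day 2), 571 (day 4), 1284 and 19.9 (first and second day 7 library), 2381 and 1083 (both of day 11), and 194 and 262 (both of day 14). Their part in the member values was not tested. Of these 5, 4 were called higher on day 11 than in the control (edgeR). On day 7 none was called with TMM and 4 with library size alone. In the immune cells of the control, the same 14 markers summed to 9279 CPM. With a stricter tubular gate the rise of Cdkn1a from control to day 7 was 3.53, about that of the usual gate. The sums of these markers under that gate are not given, and their part in the rise was not tested.

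Cdkn1b, the p27 gene, moved little in tubular cells. Its level was 62.8 CPM in the control, 44.2, 48.2 and 39.1 (days 1, 2 and 4), 52.2 and 59.8 (day 7), 45.8 and 40.1 (day 11), and 41.9 and 45.2 (day 14). With TMM the control library was the highest, 1.61 times above the lowest, whereas with library size alone both day 7 libraries were above it. The ratio to the control was 0.704 (day 1), 0.767 (day 2) and 0.623 (day 4) with TMM, but 0.989, 1.01 and 0.886 with library size alone. From control to day 7 the change was -0.16 ± 0.20 with TMM (edgeR, adjusted p = 0.555), and it turned to 0.62 and passed with library size alone (edgeR, adjusted p = 0.0246). No day comparison of tubular sums passed for Cdkn1b with TMM.

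Ccng1, the cyclin G1 gene, ran opposite to Cdkn1a over the first week although both are p53 targets. Its level was 148 CPM in the control, 68.0 (day 1), 80.9 (day 2), 78.1 (day 4), 61.7 and 57.0 (day 7), 115 and 98.9 (day 11), and 120 and 92.2 (day 14). Every injured library was below the control, and with TMM, but not with library size alone, both day 7 libraries were below all others. The ratio to the control was 0.460 (day 1), 0.547 (day 2) and 0.528 (day 4), or 0.646, 0.721 and 0.751 with library size alone. Ccng1 fell by 1.32 ± 0.21 on the log2 scale from control to day 7 (edgeR, adjusted p = 0.000971), whereas with library size alone the change was -0.53 and did not pass (edgeR, adjusted p = 0.0640). It rose by 0.85 ± 0.18 from day 7 to day 11 (edgeR, adjusted p = 0.00390), which library size alone put at 0.07, not passing (edgeR, adjusted p = 0.751). From day 7 to day 14 the change was 0.84 ± 0.18 with TMM (edgeR, adjusted p = 0.00375) and -0.03 with library size alone, which reversed its sign. It also did not pass without the first day 14 library.

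Mdm2, which encodes the ligase that degrades p53, was nearly level with TMM. Its values were 33.2 CPM in the control, 29.6 (day 1), 31.1 (day 2), 55.2 (day 4), 35.1 and 33.1 (day 7), 31.2 and 34.8 (day 11), and 31.8 and 33.1 (day 14). The single day 4 library stood above all others, at 1.66 times the control (counting interval 1.52 to 1.83). Days 1 and 2 were at 0.893 and 0.936 times the control with TMM. With library size alone days 1, 2 and 4 were at 1.25, 1.24 and 2.37 times. Day 7 differed from the control by 0.04 ± 0.20 on the log2 scale (edgeR, adjusted p = 0.903), or by 0.82 with library size alone, which passed (edgeR, adjusted p = 0.00678).

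Gdf15, the stress cytokine, had its high values in both day 11 libraries and the second of day 7 with TMM, and it differed between the day 7 libraries. Its level was 71.6 CPM in the control, 62.7 (day 1), 66.2 (day 2), 91.9 (day 4), 54.4 and 117 (day 7), 122 and 116 (day 11), and 54.1 and 39.4 (day 14). Days 1, 2 and 4 were at 0.876, 0.924 and 1.28 times the control with TMM. With library size alone they were at 1.23, 1.22 and 1.83 times. With TMM the day 7 libraries lay on both sides of the control, with a mean of 85.8 ± 44.3 (SD, n = 2), while those of day 11 agreed closely at 119 ± 4.38. From control to day 7 the change was 0.27 ± 0.37 (edgeR, adjusted p = 0.605). Library size alone put both day 7 libraries above the control, at 1.34 and 2.75 times its level against 1.74 and 1.60 times on day 11, so the highest library was then one of day 7. On that scale the change was 1.05 and passed (edgeR, adjusted p = 0.0367). With TMM it was 0.71 and passed without the first day 7 library (edgeR, adjusted p = 0.0470) and was -0.39 without the second. Gdf15 fell by 1.35 ± 0.30 from day 11 to day 14 (edgeR, adjusted p = 0.0191), a call that was lost without either day 11 library or without the second day 14 library. The change from day 7 to day 14, -0.89 ± 0.30, passed (edgeR, adjusted p = 0.0341) but did not in 6 of 16 alternatives.

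Bax, the death effector, was lowest on day 14. Its level was 33.8 CPM in the control, 49.0 (day 1), 39.3 (day 2), 47.4 (day 4), 50.3 and 38.0 (day 7), 45.5 and 62.3 (day 11), and 27.7 and 26.2 (day 14). All injured libraries up to day 11 were above the control and both of day 14 below it. Neither day 7 (0.38 ± 0.25, edgeR, adjusted p = 0.272) nor day 11 (0.68 ± 0.25, edgeR, adjusted p = 0.0876) passed against the control with TMM. Library size alone put day 7 at 1.17 above it (edgeR, adjusted p = 0.00464), and day 11 passed without either day 7 library. Bax fell by 1.001 ± 0.21 from day 11 to day 14 (edgeR, adjusted p = 0.0132) and by 0.70 ± 0.21 from day 7 to day 14 (edgeR, adjusted p = 0.0173), each lost in 3 of the leave-one-out fits. Those fits left out either day 14 library, the second day 11 library (day 11 to day 14) or the first day 7 library (day 7 to day 14).

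Trp53inp1, the p53-activating stress protein gene, was the steadiest member with TMM. It ran from 9.67 CPM in the second day 14 library to 13.5 in the second day 7 library, with 12.4 in the control. Both day 7 libraries were above the control (1.03 and 1.08 times its level). Those of day 11 were at 0.971 and 0.837 times and those of day 14 at 0.832 and 0.778 times. The counting intervals of 0.837 (0.644 to 1.08) and 0.832 (0.681 to 1.01) overlapped, so these days were not separated. No day comparison of tubular sums passed with TMM. Its change from control to day 7 was 0.08 ± 0.22 (edgeR, adjusted p = 0.810), against 0.86 with library size alone, which passed (edgeR, adjusted p = 0.0103).

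The members can be read against all 16386 genes tested in tubular cells. From control to day 7, 1 of 7 rose (Cdkn1a) and 1 fell (Ccng1), where 15.9% of all genes were called higher and 17.8% lower (2610 and 2916 genes). Library size alone gave 6 members higher and none lower, and 7728 genes higher and 1122 lower. On day 11, 1 of 7 was above the control (Cdkn1a) and none below, against 8.6% and 8.87% of all genes. On day 14 none of the 7 differed from the control by edgeR's quasi-likelihood test or by DESeq2, although 3 (Cdkn1a, Cdkn1b and Ccng1) had an unadjusted p below 0.05, and 4.24% of all genes were called higher and 3.12% lower. These comparisons share the single control library.

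Between injured days, more members fell than rose toward day 14. From day 7 to day 11, 1 of 7 rose and 1 fell, against 23% and 20.7% of all genes, or 3761 and 3392 genes. Library size alone gave none higher and 4 lower of the 7, and 1608 and 8486 of all genes. From day 7 to day 14, 1 rose (Ccng1) and 3 fell (Cdkn1a, Bax and Gdf15), against 24.2% and 21.5%, or 3966 and 3531 genes. With library size alone none rose and 6 fell, beside 1558 and 9338 of all genes. From day 11 to day 14, 3 fell (Cdkn1a, Bax and Gdf15) and none rose, against 5.91% and 6.01% of all genes.

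**Figure D2:**
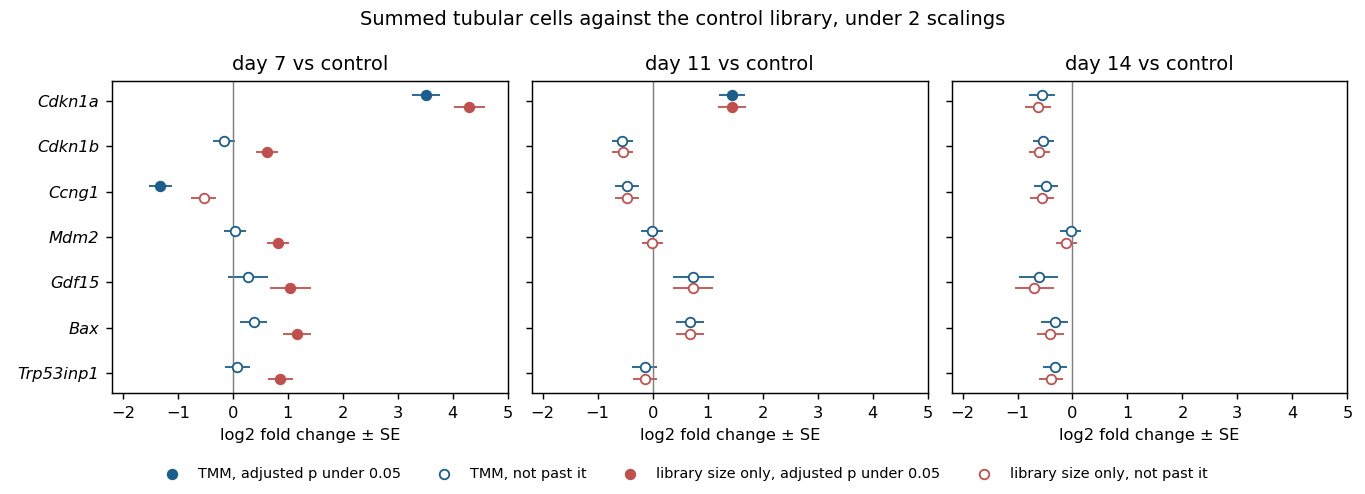
Log2 fold change ± SE of each member in summed tubular cells against the control library on days 7, 11 and 14, with TMM (blue) and with library size alone (red); filled points passed an adjusted p of 0.05. On day 7 Cdkn1a is at 3.51 and Ccng1 at -1.32 with TMM, and the red points lie to the right of the blue ones. On days 11 and 14 both scalings nearly coincide.

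Segments were gated by their own marker UMIs among tubular cells without a UMI of Havcr1 or Vcam1, both of which mark injured tubule. Each segment was tested on its own, and the differences between segments in the response to injury were not tested. In proximal cells, which reabsorb most of the filtrate, Cdkn1a was 11.3 CPM in the control, 49.8, 28.6 and 29.0 (days 1, 2 and 4), 57.5 and 17.0 (day 7), 28.1 and 19.9 (day 11), and 4.93 and 5.45 (day 14). The day 7 libraries differed from each other and rested on 128 and 252 cells. Their rise of 1.39 over the control did not pass (edgeR, adjusted p = 0.0947), whereas that of day 11, 1.09 ± 0.35, did (edgeR, adjusted p = 0.0429). The day 11 call was lost without either day 11 library, with DESeq2, under the stricter segment gate and with the lower mitochondrial limit.

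Gdf15 rose in proximal cells on day 11. It was 44.6 CPM in the control, 24.9, 30.2 and 41.9 (days 1, 2 and 4), 26.8 and 49.6 (day 7), 102 and 90.1 (day 11), and 35.8 and 21.6 (day 14), so both day 11 libraries were above all others. The change was 1.10 ± 0.30 from control to day 11 (edgeR, adjusted p = 0.0217) and -1.74 ± 0.24 from day 11 to day 14 (edgeR, adjusted p = 0.00122). Leaving out either day 11 library, or DESeq2 in place of edgeR, ended the first of these calls. Ccng1 was 167 in the control and 57.5 and 52.4 on day 7, a fall of 1.62 ± 0.30 (edgeR, adjusted p = 0.00469). Library size alone gave -0.89 for that fall, which did not pass (edgeR, adjusted p = 0.0649).

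In proximal cells 14312 genes were tested. From control, 1 of 7 was called on day 7 (11% of all genes, in either direction), 2 on day 11 (21.5%) and none on day 14 by edgeR or by DESeq2 (9.38%), where 3732 genes had an unadjusted p below 0.05. From day 7, 2 members were called on day 11 (13.4%; Ccng1 and Gdf15, each lost when any library of days 7 and 11 was left out) and 1 on day 14 (9.45%). That one was Cdkn1a, at -2.50, and it was lost without the first day 7 library. From day 11 to day 14, Cdkn1a (-2.203 ± 0.30, edgeR, adjusted p = 0.00104), Gdf15 and Bax (-1.11 ± 0.20, edgeR, adjusted p = 0.00427) fell, 3 of 7 against 10.9% of all genes.

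In thick limb cells, which reabsorb salt and make uromodulin, Cdkn1a was 8.53 CPM in the control, 131, 81.0 and 57.4 (days 1, 2 and 4), 170 and 73.8 (day 7), 14.7 and 23.0 (day 11), and 6.67 and 1.34 (day 14). Both day 7 libraries were above every control, day 11 and day 14 library. The rise from control to day 7 was 3.75 ± 0.49 (edgeR, adjusted p = 3.89e-05), and the change from day 7 to day 11 was -2.65 ± 0.40 (edgeR, adjusted p = 0.000147). Ccng1 fell by 1.24 ± 0.26 from control to day 7 (edgeR, adjusted p = 0.00283), or by 0.57 with library size alone, which did not pass (edgeR, adjusted p = 0.0949). The day 11 level of Cdkn1b was 0.81 ± 0.24 below the control (edgeR, adjusted p = 0.0427), a call that ended without either day 11 library or either day 14 library, with DESeq2, with library size alone and with the lower mitochondrial limit.

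The counts in thick limb cells, over 11644 genes, were 2 of 7 from control to day 7 (20.9% of all genes), 1 of 7 to day 11 (11.1%) and none to day 14 by edgeR or by DESeq2 (1.55%), where 2016 genes had an unadjusted p below 0.05. From day 7, 1 of 7 was called on day 11 (27.1%) and 3 of 7 on day 14 (20.9%): Cdkn1a at -4.82, Bax at -1.37 and Ccng1 at 0.77. Between day 11 and day 14 none passed by edgeR or by DESeq2 (6.54%; 2281 genes below an unadjusted 0.05). Without the second day 7 library, 4 members were called from control to day 7 and 3 from day 7 to day 11. Cdkn1a differed from day 11 to day 14 by -2.18 (edgeR, adjusted p = 0.0541), which passed without the first day 14 library or without either day 7 library.

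Segments also differed from each other within a library. Over 10 libraries, Cdkn1b was 1.16 to 1.96 times higher in thick limb than in proximal cells, in 10 of 10 libraries (log2 difference 0.57 ± 0.09, edgeR with library as a block, adjusted p = 7.63e-05). In the control it was 82.5 against 42.0 CPM, and in the first day 7 library 64.0 against 40.8. Trp53inp1 was lower in thick limb cells in 8 of 10 libraries (-1.04 ± 0.31, edgeR, adjusted p = 0.00949), for example 5.12 against 16.5 in the control. Ccng1 was lower in 9 of 10 (-0.41 ± 0.09, edgeR, adjusted p = 0.00158) and Bax in 8 of 10 (-0.47 ± 0.13, edgeR, adjusted p = 0.00514). Neither passed with library size alone. Mdm2 was 0.30 ± 0.12 higher (edgeR, adjusted p = 0.0441), a call lost in 5 leave-one-out fits and with no filter on low counts. Cdkn1a (0.40) and Gdf15 (0.11) did not pass, so 5 of 7 members were called against 61.5% of the 9601 genes tested.

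Gdf15 had high levels in principal cells, the water and sodium handling cells of the collecting duct, for which no test was planned. Its scaled level there was 415 CPM in the control, 172, 112 and 304 (days 1, 2 and 4), 144 and 337 (day 7), 538 and 595 (day 11), and 225 and 245 (day 14). The lowest value thus fell on day 2 and the highest values on day 11. Scaled together with proximal cells of the same library, principal cells held 2.79 to 8.89 times their level, with a median of 5.11, in 10 of 10 libraries. In cells thinned to 1000 UMIs, a Gdf15 UMI was found in 7.37% to 29.8% of principal cells, 1.46% to 5.83% of proximal cells and 0% to 2.70% of endothelial cells, a type at background for this gene. Before thinning, the control shares were 39.7%, 10.1% and 0.410%, at median depths of 2944, 2557 and 1433.5 UMIs. Cdkn1b was also higher in principal than in proximal cells in 10 of 10 libraries, by 1.78 to 3.34 times.

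Cdkn1a in principal cells was 14.4 CPM in the control, 104, 107 and 58.1 (days 1, 2 and 4), 136 and 141 (day 7), 14.8 and 30.8 (day 11), and 11.2 and 10.8 (day 14). All libraries from day 1 to day 7 were above the control, while on day 11 the first was near it and the second 2.13 times its level, from 7 and 12 Cdkn1a UMIs against 20 in the control. Intercalated cells, the acid-base cells of the same duct, ran from 25.1 on day 14 to 208 on day 7, with 44.0 in the control and 120 in the other day 14 library, from 40 to 131 cells per library. Tubular cells without a segment call carried the highest tubular values, 354 and 309 on day 7, against 11.3 in the control and 25.2 and 5.64 on day 14. Their ratio to the control was 12.5, 10.1 and 9.01 on days 1, 2 and 4. On day 11 it was still 14.9 and 8.79, from 64 and 29 Cdkn1a UMIs.

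**Figure D3:**
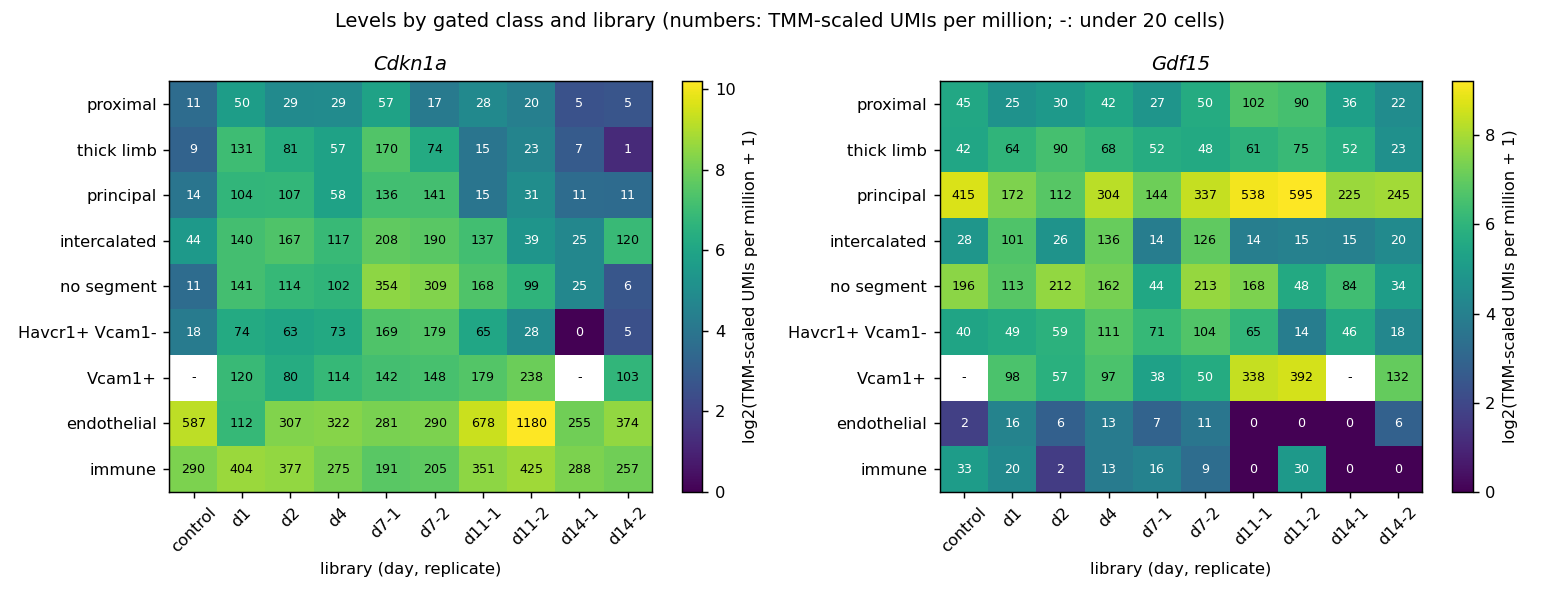
Levels of Cdkn1a and Gdf15 by gated class (rows) and library (columns); the numbers are TMM-scaled CPM and the colour is log2 of that level plus 1, and a dash marks fewer than 20 cells. Cdkn1a is high on day 7 in every tubular class shown except the second proximal library. Distal convoluted cells are not shown. Their second day 7 library had 40.5 CPM from 6 UMIs in 27 cells (counting interval 14.8 to 88.1), against 20.3 in the control. Their first day 7 library held only 7 cells. Gdf15 in principal cells reaches 595 on day 11 and is the highest shown in each library except that of day 2, where cells with no segment have 212.

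Havcr1 encodes kidney injury molecule 1, and cells with at least 1 Havcr1 UMI and no Vcam1 UMI were set against proximal cells of the same library. Cdkn1a was higher in the Havcr1+ cells in 8 of 10 libraries, with a median ratio of 1.65. The levels on the joint scale were 16.2 against 11.4 CPM in the control, 69.8 against 61.5 (day 1), 58.6 against 31.7 (day 2) and 69.2 against 31.4 (day 4). On day 7 they were 162 against 72.9 and 176 against 19.6. On day 11 they were 65.8 against 29.2 and 29.6 against 20.3. The Havcr1+ sums of the control and of both day 11 libraries held only 8, 7 and 2 Cdkn1a UMIs. For the second day 11 library, 3 counts would be 44.4 CPM, above its value. The day 14 libraries went the other way, with 0 against 4.88 and 4.35 against 5.49, but their Havcr1+ sums held 0 and 1 Cdkn1a UMI. For the library with 0, 3 counts would be 8.96 CPM on the joint scale, so a level near that of proximal cells was not detectable. The difference was 1.03 ± 0.23 on the log2 scale (edgeR with library as a block, adjusted p = 0.00604) and passed in 17 of 18 alternatives. The exception kept only Havcr1+ cells that also passed the proximal gate, where it was 0.50 and did not pass (edgeR, adjusted p = 0.0642). The Havcr1+ gate does not ask for a segment, and its sums held markers of other segments. Without the TMM factor, the 5 thick limb markers summed to 1711 and 2126 CPM in Havcr1+ cells and 411 and 363 in proximal cells on day 7, and the 6 principal markers to 1574 and 2126 against 351 and 163. On day 4 the thick limb markers were 2007 against 489 and the 15 proximal markers 11615 against 22755. Of the Havcr1+ cells, 138 of 324 and 105 of 245 passed the proximal gate on day 7 and 850 of 1262 on day 4. Cdkn1a was the only member called, where 12.6% of the 8207 genes tested passed. Gdf15 (0.43), Mdm2 (0.24), Ccng1 (0.22), Bax (0.18), Cdkn1b (0.01) and Trp53inp1 (-0.08) did not pass. Gdf15 did so with at least 2 Havcr1 UMIs required.

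Vcam1, an adhesion molecule of inflamed epithelium, marked a second injured gate. In the 8 libraries with at least 20 such cells, no member differed between Vcam1+ and Havcr1+ Vcam1- cells by edgeR or by DESeq2, where 16.3% of 8284 genes passed and 2268 had an unadjusted p below 0.05. The widest differences were those of Trp53inp1 (0.39, edgeR, adjusted p = 0.245) and Mdm2 (0.36, edgeR, adjusted p = 0.220), each higher in 7 of 8 libraries. Both genes passed without the day 2 library. Of those 7, both day 11 libraries and that of day 14 rested on few UMIs. For Trp53inp1 they held 3, 1 and 2 UMIs in Vcam1+ cells and 2, 1 and 1 in Havcr1+ cells. For Mdm2 they held 10, 3 and 5 against 2, 1 and 6. Mdm2 was 88.6 against 45.1 CPM on day 4, where 1574 cells were Vcam1+. Cdkn1a was higher in 6 of 8 libraries and lower in both day 7 libraries, at 136 against 187 and 141 against 203. Of those 6, both day 11 libraries and that of day 14 held only 7, 2 and 1 Cdkn1a UMIs in Havcr1+ cells. Scaled among Vcam1+ cells alone, Cdkn1a was 142 and 148 CPM on day 7. On day 11 it was 179 and 238, from 18 and 14 UMIs. Gdf15 was higher in 4 of 8 libraries and lower in those of days 2, 4 and 7, at 52.7 against 61.9 (day 2), 89.6 against 120 (day 4), and 36.0 against 78.6 and 47.7 against 118 (day 7). The Havcr1+ gate asks for no segment. Without the TMM factor, the 6 principal markers summed to 354 CPM in Vcam1+ and 491 in Havcr1+ cells on day 2. On day 4 they were at 523 and 2050. On day 7 they were at 777 and 328 in Vcam1+ cells against 1574 and 2126 in Havcr1+ cells. They were also lower in Vcam1+ cells on day 1 (497 against 1261), where Gdf15 was higher. Gdf15 was high in principal cells. The part of segment make-up in these Gdf15 differences was not tested. On day 11 Gdf15 was 356 against 76.3 and 432 against 17.4, where only 37 and 25 cells were Vcam1+. The Havcr1+ sums of those libraries held only 7 and 1 Gdf15 UMIs.

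Cells in cycle were called from at least 2 UMIs of 8 proliferation genes. No member differed between cycling and other tubular cells in 10 libraries by edgeR or by DESeq2, while 10.9% of 11744 genes passed and 2902 had an unadjusted p below 0.05. Cdkn1a differed by -0.05 ± 0.20 (edgeR, adjusted p = 0.933), higher in cycling cells in 5 libraries and lower in 5. The cycling sums of the control, both day 11 and both day 14 libraries held only 6, 5, 2, 3 and 5 Cdkn1a UMIs. The control and both day 14 libraries were among the 5 that were higher. Cdkn1a was 114 against 67.7 CPM on day 4 and 81.8 against 180 and 124 against 140 on day 7. Cdkn1b was 0.16 higher (edgeR, adjusted p = 0.441), in 8 of 10 libraries.

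**Figure D4:**
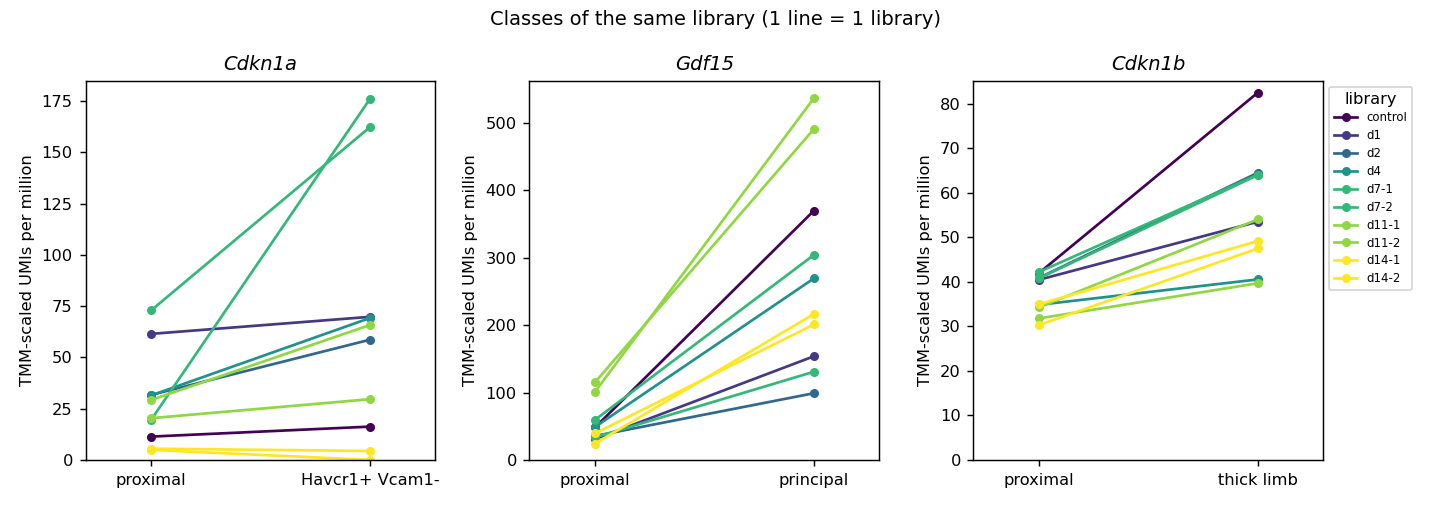
Levels in 2 classes of the same library, in TMM-scaled CPM; each line is 1 library. Cdkn1a is higher in Havcr1+ Vcam1- than in proximal cells in 8 of 10 libraries, Gdf15 higher in principal than in proximal cells in 10 of 10, and Cdkn1b higher in thick limb than in proximal cells in 10 of 10. Of those 8, the control and both day 11 libraries rest on 8, 7 and 2 Cdkn1a UMIs in Havcr1+ Vcam1- cells.

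Other genes known as p53 targets did not move as a block. Of 34 tested, 13 were higher and 4 lower on day 7 than in the control (15.9% and 17.8% of all genes), with a median log2 change of 0.35 against 0.04 for all genes. Library size alone made that 21 higher and 2 lower, with a median of 1.13 against 0.82. Pmaip1 (Noxa, a death activator) rose by 2.64 ± 0.32 (edgeR, adjusted p = 0.000167) and Perp, a desmosomal p53 target, by 1.44 ± 0.26 (edgeR, adjusted p = 0.00187). Dcxr, an enzyme of sugar metabolism, fell by 1.92 ± 0.29 (edgeR, adjusted p = 0.000683), and Rrm2b, a subunit of ribonucleotide reductase, by 1.05 ± 0.23 (edgeR, adjusted p = 0.00608). On day 11, 10 were above the control and 2 below (8.6% and 8.87% of all genes), and on day 14 the counts were 5 and 0 (4.24% and 3.12%). Perp (1.69) and Pmaip1 (1.51) were among the 5. The counts of the lists that follow stand beside the same shares of all genes for each pair of days. Those with library size alone, here and below, stand beside the counts of all genes on that scale. As given with the members, that scale called far more genes higher than lower on day 7.

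From day 7 to day 11, 8 of the 34 rose and 5 fell, beside 23% and 20.7% of all genes, or 2 and 21 with library size alone. Over days 7 to 14 the counts were 8 and 13, beside 24.2% and 21.5% of all genes, or 3 and 24. From day 11 to day 14, 1 rose and 6 fell, beside 6.01% and 5.91% of all genes. Ddit4, an inhibitor of mTOR signalling, fell by 1.83 in that interval and Btg2, an antiproliferative gene, by 1.33.

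Among 13 regulators of p53, 3 were higher and 2 lower on day 7 than in the control, beside 15.9% and 17.8% of all genes (7 and 0 with library size alone). Trp53 itself, the gene of p53, rose by 1.43 ± 0.22 (edgeR, adjusted p = 0.000718) and fell by 0.83 from day 7 to day 11. Usp7, a deubiquitinase of MDM2 and p53, was at -0.73 with TMM and 0.06 with library size alone, which turned its sign. On day 11, 1 was above the control (Rpl11, a ribosomal protein that binds MDM2) and 4 below. On day 14, 1 was below, the acetyltransferase gene Ep300 at -0.998.

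Of the 5 other inhibitors of cyclin-dependent kinases, 3 were higher and none lower on day 7 (5 and 0 with library size alone). Cdkn2b (p15) rose by 2.64 ± 0.40 (edgeR, adjusted p = 0.000635), was 1.65 above the control on day 11, and fell by 2.37 from day 11 to day 14. Cdkn2c (p18) was 1.57 above the control on day 14. Among 17 cyclins, kinases and pocket proteins of G1, 6 were higher and 3 lower on day 7 (10 and 1 with library size alone). Cdk4 rose by 1.23 and Ccnd1 (cyclin D1) fell by 1.69. Ccnd1 fell by 0.91 with library size alone, and it rose by 2.45 from day 7 to day 14. Of 22 proliferation genes 20 were higher on day 7 and none lower, Top2a by 2.42 and Birc5 by 3.26, so the arrest gene Cdkn1a and the genes of division were high in the same libraries. By day 11, 18 of the 22 had fallen from day 7 and none had risen.

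The genes whose levels ran most like each member over the 10 tubular sums were ranked by Pearson's r among 7082 well-detected others (7083 for Trp53inp1). The r describes libraries that share a scaling and the same injury course. For Cdkn1a they were Aoc1 (0.988), Krt18 (0.987, also a gene of the tubular gate) and Ctsc (0.983). The nearest to Ccng1 was Usp16 (0.968), to Bax Uchl3 (0.973), to Trp53inp1 Eif4e3 (0.937), to Cdkn1b Ogt (0.922), to Gdf15 Hddc2 (0.919) and to Mdm2 Psmd10 (0.848). No member was among another member's 3 nearest genes. With so many genes ranked, that says little about the members as a set. Pearson's r between members ran from -0.827 (Cdkn1a with Ccng1) to 0.724 (Cdkn1a with Trp53inp1).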

How the data were processed

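The deposited tables give counts of UMIs per gene symbol and barcode in 10 Drop-seq libraries; per the submitters' processing notes they involve Bowtie2 2.2.7 and the mm10 build. The aligner's settings, annotation and strand are not given in the sources used here. Barcodes were kept if they had no fewer than 500 UMIs and 500 genes and a mitochondrial share of no more than 50%. The gene minimum cost the day 11 libraries 5362 and 5424 barcodes and the other libraries none. Scrublet (scanpy 1.11.5) marked at most 0.111% of a library by its automatic threshold, so the highest 5% of scores were removed instead. A cell was tubular with at least 3 UMIs of tubular markers and at least 2 times its non-tubular marker UMIs, and a segment needed at least 3 UMIs and 2 times every other segment.

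Counts were summed per library and class, and compared with edgeR 4.0.16 (R 4.3.3): its filter on low counts, TMM scaling, the quasi-likelihood F test and Benjamini-Hochberg adjustment over all genes tested, with a threshold of 0.05. Day comparisons were fitted on 10 libraries with 1 term per group. The single control library was taken to vary like those of days 7, 11 and 14, and days 1, 2 and 4 entered no test. Classes of the same library were compared with library as a block, in libraries with at least 20 cells of both. The SE is the log2 change divided by the square root of F. Intervals on counts are exact Poisson, those on shares exact (Clopper-Pearson), at 95%; they and floors of 3 counts cover counting error only. Replicate libraries differed beyond counting noise (chi-square per degree of freedom 14.7 to 26.0). The scripts were tested on simulated data.

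Alternatives were edgeR's RLE scaling, DESeq2 1.42.0, no low-count filter, leaving out each library, fewer groups, a 25% mitochondrial limit, no doublet removal, other gates, a replicate block and, chosen after seeing the data, library size alone and a proximal gate on Havcr1+ cells. Pathway genes were named as the 2 per list and direction with the largest change among those called with average log2 CPM of at least 4, and the 3 most like genes per member from the same level. The members and lists were chosen with earlier results of these data known.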

Additional observations from a re-analysis of the deposited data

How the results depend on the processing

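Of the counts of calls recomputed under the alternatives, 124 moved by more than 1.5 times and 516 did not. Of the members' log2 changes, 2002 kept their direction and side of the threshold, 109 that passed in neither setting turned sign, 61 gained a call, 63 lost one, and 2 with a call in either setting reversed, Cdkn1b from control to day 7 (0.62) and Ccng1 from day 7 to day 14 (-0.027), both with library size alone. Members called in tubular cells, with library size alone, became 6 from control to day 7 (from 2) and 4 from day 7 to day 11 (from 2), and all-cell sums without a gate gave 1 from control to day 14 (from 0). In proximal cells, control to day 11 gave 0 with DESeq2 and 1 each with the 25% mitochondrial limit and the stricter gate (from 2). Day 7 to day 11 gave 0 with library size alone (from 2). Control to day 14 gave 1 each with RLE scaling, fewer groups and the stricter gate and 2 with no filter (from 0), day 7 to day 14 gave 2 with library size alone and with no filter (from 1), and control to day 7 gave 2 with no filter (from 1). In thick limb cells, control to day 11 gave 0 with DESeq2, library size alone and the 25% limit (from 1), day 7 to day 11 gave 3 and day 7 to day 14 gave 5 with library size alone (from 1 and 3), control to day 14 gave 1 and day 11 to day 14 gave 2 with no filter (from 0), and day 11 to day 14 gave 1 with fewer groups. Thick limb against proximal gave 3 with library size alone (from 5), and Havcr1+ against proximal gave 0 with Havcr1+ cells that pass the proximal gate (chosen after seeing the data), 2 with at least 2 Havcr1 UMIs and 3 with library size alone (from 1). The cause was not tested.

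Leaving out 1 library at a time moved the members called over these ranges: tubular control to day 11, 1 to 4; day 7 to day 14, 2 to 3; day 11 to day 14, 1 to 3; proximal control to day 7, 1 to 2; control to day 11, 0 to 2; control to day 14, 0 to 2; day 7 to day 11, 0 to 2; day 7 to day 14, 0 to 1; thick limb control to day 7, 2 to 4; control to day 11, 0 to 1; day 7 to day 11, 1 to 3; day 11 to day 14, 0 to 2; Vcam1+ against Havcr1+, 0 to 2. Genes called in tubular cells ranged from 818 to 4174 (control to day 11, lowest without the second day 11 library), 230 to 2228 (control to day 14, lowest without the second day 14 library), 4614 to 6841 (day 7 to day 11) and 509 to 2692 (day 11 to day 14). With no filter 2190 genes were called from control to day 14 (against 1207), with no gate 3096 from day 11 to day 14 (against 1953), and with library size alone 8850 from control to day 7 (against 5526). In thick limb cells DESeq2 called 932 genes against 2431 from control to day 7, 334 against 1290 to day 11 and 49 against 181 to day 14.

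The replicate numbers of days 7, 11 and 14 did not pair the libraries (correlations of deviations 0.04, -0.02 and -0.05). With the replicate block, 7205, 7355 and 2070 genes were called in tubular cells (day 7 to 11, 7 to 14 and 11 to 14), with 2, 4 and 3 members. In proximal cells 1 member was called from day 7 to day 11, and in thick limb cells 1 from day 11 to day 14. Depth limits Cdkn1a (2 to 25 UMIs) and Trp53inp1 (3 to 13) in thick limb cells on days 11 and 14, and the Havcr1+ values of those days (0 to 44 UMIs per member).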

Other observations

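Other stress genes of the tubular sums had their own courses. Of 13 immediate early genes 9 were higher and none lower on day 7 than in the control (13 and 0 with library size alone; 15.9% and 17.8% of all genes with TMM), with a median log2 change of 1.25 against 0.04 for all genes. Klf2 and Klf4, Krüppel-like transcription factors, rose by 3.76 ± 0.44 (edgeR, adjusted p = 0.000130) and 2.96 ± 0.30 (edgeR, adjusted p = 4.99e-05). Dusp1, a phosphatase of MAP kinases, had its high level later: it was 1.92 above the control on day 11 and 1.54 above it on day 14, and it rose by 1.79 from day 7 to day 11. On day 14, 2 of the 13 were above the control and 1, Jund, below it.

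Of 10 other genes of the BCL2 family, which includes Bax, 5 were higher and none lower on day 7 (7 and 0 with library size alone). The survival gene Mcl1 rose by 0.91 ± 0.21 (edgeR, adjusted p = 0.00703) and fell by 1.08 from day 7 to day 11, while Bid, which activates BAX, rose by 1.29 over the same days (edgeR, adjusted p = 0.00145), or by 0.51 with library size alone, which did not pass (edgeR, adjusted p = 0.0694). Of 8 genes of the integrated stress response, a pathway that can induce Gdf15, 2 were higher and 2 lower on day 7 (4 and 0 with library size alone). Atf3 was 1.72 ± 0.33 above the control on day 11 (edgeR, adjusted p = 0.00843) and fell by 1.25 from day 11 to day 14. Atf4 was at -0.58 on day 7 with TMM and 0.20 with library size alone, which turned its sign.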
